A study of Rattus norvegicus with 6 samples.

Results

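The 9 genes described here, Map2, Nefm, Nefl, Nes, Gap43, Tubb3, Gfap, S100b and Gpm6a, are known chiefly from neurons and glia and were read in cultures of rat mesenchymal stromal cells. They were chosen by gene symbol, and every probe set that the platform annotation gives to exactly 1 of these symbols was kept. This gave 13 probe sets of 15866 that are not array controls, and 9 of 10411 genes. Map2, Nefl, Gap43 and Tubb3 have 2 probe sets each and the other 5 genes have 1.

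Neurons are held in shape by microtubules, built from tubulins and bound by microtubule-associated proteins, and by intermediate filaments, which in mature axons are neurofilaments. Astrocytes and neural progenitors use other intermediate filament proteins, GFAP and nestin. Such genes are often read in stromal cell cultures as signs of neural character, although several of them are also known from muscle, fat, cartilage or other mesenchymal cells.

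The cultures were grown from 3 rats carrying a GFP transgene, named S4, S5 and S6. From each rat, 1 culture came from mononuclear cells of peripheral blood and 1 from mononuclear cells of bone marrow, which makes 3 blood cultures and 3 marrow cultures paired by animal. All 6 carry the transgene, were grown in the same medium with 15% serum, and gave RNA at passage 2, of which each culture was read on 1 array (Affymetrix RAE230A). The sources used here do not give the promoter of the transgene or the strain, age and sex of the rats.

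Values are log2 signals as deposited, with the base read from the values, and the median of all values was 8.18, with array medians from 8.12 to 8.22. Differences are blood minus marrow culture of the same rat, in log2 units with their SE, and come from a paired limma fit that has a term for the animal, with Benjamini-Hochberg adjustment over all 15856 probe sets that could be fitted, at an adjusted p of 0.05. Values of 3 arrays are given in the order S4, S5, S6. A probe set's level depends on its own probes, so levels are set against the median of all values and not against each other, and no background level is known. In RNA of a whole culture, fewer cells that express a gene and less RNA per cell cannot be told apart.

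The array readings carried the marks of stromal cells, with all 14 stromal genes looked up, among them Vim, Fn1 and Col1a1, having a mean above the median of all values. Thy1, one of the 14, exceeded that median on only 3 of the 6 arrays. It read 7.02, 9.42 and 7.41 in blood cultures and 9.38, 7.68 and 9.84 in marrow cultures. Of the defining genes of neurons 2 of 8 on the array had a mean above the median of all values (Stmn2 and Syp), of those of astrocytes 3 of 7 (Gfap, Slc1a3 and Aldoc), and of those of oligodendrocytes and Schwann cells 0 of 7. Of the macrophage and leukocyte genes 6 of 9 were above it. Each gene is taken by its brightest probe set here, and by that choice 5968 of all 10409 genes lay above the median, so the counts for neurons, astrocytes and macrophages are given as a description only. All 9 macrophage and leukocyte genes had a difference between blood and marrow cultures above 0, with a median of 0.40. The share of all genes above 0 was not counted. The 9 genes were read in the same cultures and are not 9 separate results. In limma 0 of the 9 passed, and 0 had an unadjusted p under 0.05. The mean over these 9 genes was 9.26 to 9.64 in blood cultures and 8.50 to 9.55 in marrow cultures, and their part in the results below was not tested.

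Most neural and glial probe sets were dim. Of the 13, 7 lay below the median of all values on every array, 5 were above it on some arrays, and 1, a probe set of Tubb3, on all 6. Of all probe sets with a mean below that median 0.531% passed the test described above, and of those above it 0.504%. Ranked among all probe sets of an array, the median position of the 13 was the 17.4th percentile.

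Map2 was the only member that passed the test, and it was lower in blood cultures. Of the 13 probe sets 1 passed, against 82 of all 15856 (0.517%), and 6 had an unadjusted p under 0.05, against 11.2% of all. In 6 of the 13 the blood and marrow arrays did not overlap, 3 higher and 3 lower in blood cultures, where 16.3% of all probe sets did not overlap, 6.95% higher and 9.39% lower. The 3 rats had the same sign in 8 of the 13, where 31.6% of all probe sets had. The median absolute difference was 0.55 over the 13 probe sets and 0.14 over all, while the signed medians were -0.04 and -0.01. These counts describe genes chosen with earlier results of the same arrays known.

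**Figure D1:**
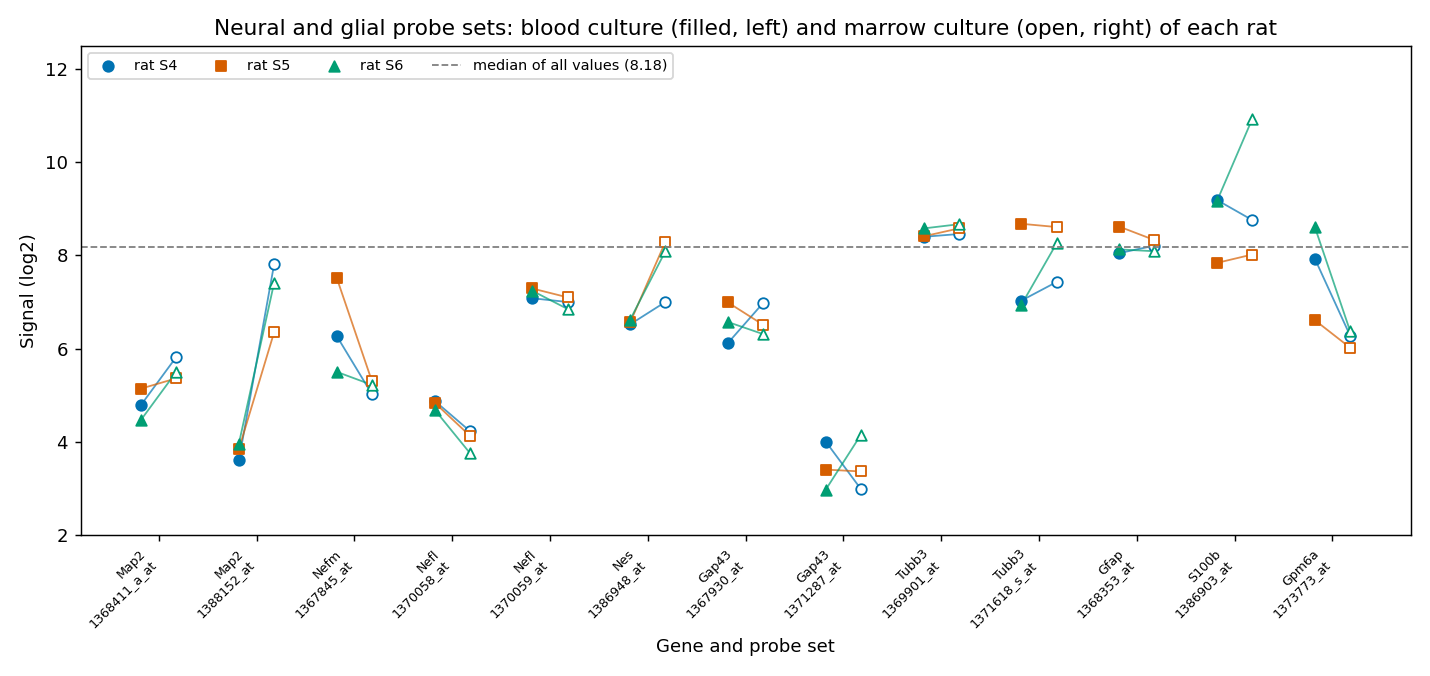
Log2 signal of each member probe set on the 6 arrays, with the blood culture of a rat filled on the left, its marrow culture open on the right, and a line joining the pair. The dashed line is the median of all values, 8.18. The widest separation is that of Map2 probe set 1388152_at, at 3.60 to 3.96 in blood cultures and 6.35 to 7.81 in marrow cultures.

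Map2 encodes a microtubule-associated protein of neuronal dendrites. Its probe set 1388152_at stood at 3.60, 3.84 and 3.96 in blood cultures, against 7.81, 6.35 and 7.41 in marrow cultures. The groups were far apart, and the blood values lay close together at 3.80 ± 0.18 (SD, n = 3) while the marrow values spread more, at 7.19 ± 0.75. Map2 fell by 3.39 ± 0.34 on the log2 scale in blood cultures (limma adjusted p = 0.0429), and 0.277% of all probe sets had a larger absolute difference. That is 10.5-fold lower, but all 6 values lay below the median of all values, so the fold is approximate.

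The other Map2 probe set, 1368411_a_at, whose suffix marks a design against several transcripts of the gene, read 4.79, 5.14 and 4.47 in blood cultures, against 5.82, 5.36 and 5.50 in marrow cultures. Its groups did not overlap either, and the difference of -0.76 ± 0.21 had the same sign but did not pass (adjusted p = 0.297). It was smaller in size than that of the first probe set in all 3 rats, at -1.03, -0.22 and -1.03 against -4.21, -2.51 and -3.45. The files do not say which Map2 transcripts each probe set reads.

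The Map2 call was close to the threshold. Adjusted p was 0.0759 with arrays centred on a common median, 0.0769 with quantile normalization and 0.0853 with a common trimmed mean, with differences of -3.38, -3.37 and -3.39. Without rat S4 it was 0.357 at -2.98, and without rat S6 0.277 at -3.36. With values under the 25th percentile of the table, 6.97, raised to it, the difference was -0.43 (adjusted p = 0.709), since the marrow value of rat S5 and all blood values lie under that level.

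Sequence upstream of 3 members is shown because the readings of their probe sets on the blood and marrow arrays did not overlap, and a promoter entry was at hand. Each line holds the 250 bases before the start that RefSeq's promoter table (build GRCr8) uses for the gene, read 5′ to 3′ on the gene's strand, with capitals marking a GC box (GGGCGG on either strand). For Map2 and Nes that start lies inside the span the annotation gives the gene.
Map2, chr9:75346440-75346689, + strand: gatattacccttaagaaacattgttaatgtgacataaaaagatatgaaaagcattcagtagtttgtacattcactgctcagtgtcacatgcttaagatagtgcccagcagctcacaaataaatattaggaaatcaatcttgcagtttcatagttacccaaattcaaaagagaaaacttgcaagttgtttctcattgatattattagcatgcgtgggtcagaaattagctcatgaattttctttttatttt
Nes, chr2:175736338-175736587, + strand: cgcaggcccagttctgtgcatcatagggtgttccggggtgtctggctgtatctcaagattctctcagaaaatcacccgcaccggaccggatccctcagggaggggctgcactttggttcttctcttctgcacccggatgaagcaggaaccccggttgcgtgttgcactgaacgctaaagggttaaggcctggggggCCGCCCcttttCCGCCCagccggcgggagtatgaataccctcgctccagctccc
Gpm6a, chr16:43706462-43706711, - strand: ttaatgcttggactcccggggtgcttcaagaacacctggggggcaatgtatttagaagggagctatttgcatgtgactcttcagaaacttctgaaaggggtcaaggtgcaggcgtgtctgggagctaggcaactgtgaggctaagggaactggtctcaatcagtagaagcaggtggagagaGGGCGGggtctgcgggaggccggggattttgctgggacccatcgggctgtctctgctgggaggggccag
The Map2 stretch was 32.0% G and C with 1 CpG, against medians of 51.2% and 5 over 33469 promoters of the same length, and only 2.9% of these had a lower G and C content. The Nes stretch was 60.4% G and C with 14 CpG, and that of Gpm6a 56.8% with 6. The letters GGGCGG occurred on either strand 2 times in Nes, 1 time in Gpm6a and not in Map2, and in 30.5% of all promoters. Other motifs were searched on both strands, with overlaps counted. A TATA box, spelled TATAAA, was in 12.9% of all promoters and in 0 of these 3. A CCAAT box was in 34% of all promoters and in 0 of the 3. The E box CAGCTG was in 12.0% of all promoters, the E box with the letters CACGTG in 5.6%, and both in 0 of the 3.

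Nes encodes nestin, an intermediate filament protein of neural progenitors that is also found in developing muscle and vessel walls. It read 6.52, 6.56 and 6.62 in blood cultures, against 7.0, 8.29 and 8.09 in marrow cultures. All blood values lay below all marrow values and were nearly equal to each other (SD 0.05, n = 3), and only the marrow culture of rat S5 was above the median of all values. The difference of -1.23 ± 0.27 did not pass (adjusted p = 0.214). It ran from -0.48 in rat S4 to -1.73 in rat S5.

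Muscle markers were read beside Nes, and none of them passed. Myod1, the myogenic regulator, stood at 4.56, 4.56 and 3.59 in blood cultures, against 5.81, 9.09 and 10.17 in marrow cultures, which is -4.12 ± 1.00 (adjusted p = 0.25). Its marrow value was lowest in rat S4, as was that of Nes. Of the 7 skeletal muscle genes on the array, 0 had a difference above 0 and 0 passed in limma. An unadjusted p under 0.05 was found for 3, against 11.2% of all probe sets. Their mean was 6.61 to 6.69 in blood cultures and 7.02 to 7.75 in marrow cultures. Among 8 smooth muscle and pericyte genes, 3 had a difference above 0, 0 passed and 3 had an unadjusted p under 0.05, with list means of 7.86 to 7.94 in blood cultures and 7.90 to 8.10 in marrow cultures. Cspg4, a pericyte proteoglycan, read 6.18, 6.38 and 6.36 in blood cultures, against 7.26, 6.56 and 7.18 in marrow cultures. It is 1 gene of this list and does not stand for it, since 3 of the 8 went the other way. The part of these cells in the Nes values was not tested.

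Of 8 pigment cell genes looked up beside Map2, 3 are on the array and 1, Mitf, passed. Over all genes, by the brightest probe set of each, 0.49% passed. With 3 genes the count is a description only. Mitf, the regulator of the melanocyte lineage, which is also active in macrophages and bone-resorbing cells, read 7.46, 7.04 and 6.87 in blood cultures, against 9.16, 8.36 and 8.88 in marrow cultures, and fell by 1.68 ± 0.18 (adjusted p = 0.048). Without rat S4 or without rat S6 no probe set of the table passed, Mitf included. Mlana, a melanosome protein gene, differed by -3.49 ± 0.46 (adjusted p = 0.0811), while Sox10, the neural crest regulator shared with glia, read 6.45, 7.44 and 6.62 in blood cultures and 7.33, 7.09 and 6.91 in marrow cultures, with overlapping groups. The mean of the 3 genes was 6.42 to 7.04 in blood cultures and 8.14 to 8.88 in marrow cultures, and their part in the Map2 values was not tested.

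For the neurofilament genes Nefm and Nefl, the value of the blood culture was above that of the marrow culture in every rat, but neither passed. Nefm, the medium chain, read 6.27, 7.52 and 5.50 in blood cultures, against 5.02, 5.30 and 5.22 in marrow cultures. The groups did not overlap, the marrow values lay within 0.28 of each other, and the blood value of rat S5 stood highest. The difference of 1.25 ± 0.38 had an adjusted p of 0.338, and ranged from 0.28 in rat S6 to 2.22 in rat S5. Ranked among all probe sets of an array, the median position of Nefm was the 6.1th percentile. With values under the 25th percentile of the table raised to it, the Nefm difference was 0.18 (limma adjusted p = 0.881).

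Nefl, the light chain, has 2 probe sets that the platform annotation draws from the same source sequence. Probe set 1370058_at read 4.88, 4.84 and 4.69 in blood cultures, against 4.23, 4.13 and 3.76 in marrow cultures. Its groups did not overlap and the rats were alike, with differences of 0.65, 0.71 and 0.93. The mean of 0.76 ± 0.13 did not pass in limma (unadjusted p = 0.00239, adjusted p = 0.139). Ranked among all probe sets of an array, this probe set lay between the 1.1th and 3.8th percentiles. With the floor at the 25th percentile its difference was 0.0, since all its values lie under that level. On probe set 1370059_at Nefl read 7.08, 7.29 and 7.24 in blood cultures, against 7.0, 7.10 and 6.85 in marrow cultures. These groups overlapped and the difference was only 0.22 ± 0.13 (adjusted p = 0.662), or 0.18 with the floor.

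Gpm6a, a neuronal membrane glycoprotein of the myelin proteolipid family, had the largest difference above 0 among the members. It read 7.93, 6.61 and 8.61 in blood cultures, against 6.28, 6.02 and 6.38 in marrow cultures. The groups did not overlap, although rat S5 stood apart with a blood value close to the marrow level, and only the blood culture of rat S6 was above the median of all values. The difference of 1.49 ± 0.33, or 2.81-fold, did not pass (adjusted p = 0.214). Within rats it was 1.65, 0.59 and 2.23. The mean was 1.94 without rat S5 (limma adjusted p = 0.0516), 1.41 without rat S4 (adjusted p = 0.633) and 1.12 without rat S6 (adjusted p = 0.564). Its relative Gpm6b was bright in both, at 10.46, 10.10 and 10.72 in blood cultures and 10.14, 9.73 and 10.10 in marrow cultures. Gpm6b differed by 0.44 ± 0.13 (adjusted p = 0.346).

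**Figure D2:**
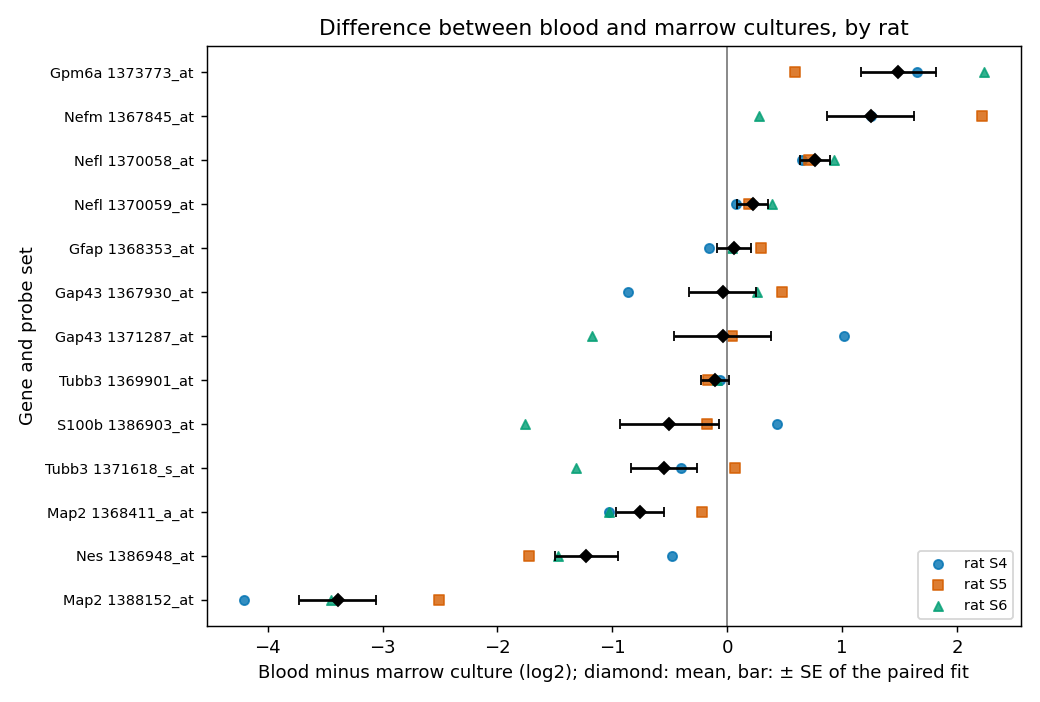
Blood minus marrow difference (log2) of each member probe set in each rat (coloured points), with the mean and SE of the paired fit (diamond and bar). Map2 lies farthest to the left at -3.39, Gpm6a farthest to the right at 1.49, and the 3 rats of Gap43, Gfap and S100b fall on both sides of 0.

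Gap43, Tubb3 and Gfap did not pass on any of their probe sets. Gap43, a growth cone protein of regenerating axons, read 6.12, 6.99 and 6.57 in blood cultures, against 6.98, 6.51 and 6.31 in marrow cultures, on probe set 1367930_at. The groups overlapped and the rats went in both directions, at -0.86, 0.48 and 0.26, for a mean of -0.04 ± 0.29 (adjusted p = 0.989). Its other probe set 1371287_at read 4.0, 3.40 and 2.97 in blood cultures and 2.98, 3.36 and 4.15 in marrow cultures, and also differed by -0.04, with an SE of 0.42.

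Tubb3 encodes the beta tubulin that is enriched in neurons. On probe set 1369901_at it read 8.40, 8.41 and 8.58 in blood cultures, against 8.46, 8.58 and 8.67 in marrow cultures. All 6 values lay just above the median of all values and within 0.27 of each other, and the difference was -0.11 ± 0.12 (adjusted p = 0.861). The second probe set 1371618_s_at, whose suffix marks probes shared between transcripts of different genes, read 7.03, 8.68 and 6.94 in blood cultures, against 7.43, 8.61 and 8.26 in marrow cultures. Both cultures of rat S5 were at the top, the groups overlapped, and the difference was -0.55 ± 0.29 (adjusted p = 0.595). Because of its shared probes it is an uncertain reading of Tubb3 alone.

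Gfap, the intermediate filament gene of astrocytes, read 8.05, 8.62 and 8.13 in blood cultures, against 8.21, 8.33 and 8.09 in marrow cultures. These values straddled the median of all values, the groups overlapped, and the difference was 0.06 ± 0.15 (adjusted p = 0.951). Of the 7 genes that define astrocytes, Gfap included, 5 had a difference above 0, 0 passed in limma and 2 had an unadjusted p under 0.05.

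S100b, a calcium-binding protein of astrocytes and Schwann cells that fat and cartilage cells also make, was uneven between animals. It read 9.19, 7.84 and 9.17 in blood cultures, against 8.76, 8.02 and 10.93 in marrow cultures. Both cultures of rat S5 lay below the median of all values and the marrow culture of rat S6 far above it, so the groups overlapped. The difference of -0.50 ± 0.43 did not pass (adjusted p = 0.795), with 0.43, -0.18 and -1.76 within rats. Without rat S6 the mean was 0.13, on the other side of 0.

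The animal was tested as a term of the same fit. S100b had an unadjusted p of 0.0291 and the shared Tubb3 probe set one of 0.0246 in limma's F test, with adjusted p of 0.927 and 0.911. No probe set of the table passed for the animal (0 of 15856, or 0%), and 815 had an unadjusted p under 0.05, or 5.14%.

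For the members whose brightest probe set exceeded the table's median on at least 3 arrays, the genes with the most similar values over the 6 arrays were looked up among 6090 others. The arrays share animals in pairs, and with 6 points such values are a description only. For S100b these were Rnh1, an inhibitor of ribonucleases, Idi1, an isomerase of isoprenoid synthesis, and Pcyox1, with Pearson's r of 0.996, 0.991 and 0.989. Idi1 read 10.69, 10.16 and 10.60 in blood cultures and 10.37, 10.21 and 11.31 in marrow cultures, so that, like S100b, it was highest in the marrow culture of rat S6. For Gfap they were Pheta1, Cyp2d4 and Ntn1, the axon guidance factor netrin, at 0.993, 0.992 and 0.990, and for Tubb3 they were Ptpa, Fundc1 and Zfp213, at 0.991, 0.984 and 0.983.

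Around the members, 10 lists of related genes held 190 genes, of which 164 were on the array. In limma 2 of the 164 were higher in blood cultures, 0 were lower and 162 did not pass. An unadjusted p under 0.05 was found for 25, against 11.2% of all probe sets. The same share belongs beside each list count of this kind. Over all genes, by the brightest probe set of each, 0.24% were higher and 0.25% lower, or 0.49% in all. Both genes that passed belong to the list of neural adhesion and M6 proteins, where 13 of 14 genes had a difference above 0 and the median was 0.38, against -0.01 for all genes. Over the 10 lists 98 of the 164 genes had a difference above 0. The share of all genes above 0 was not counted. The lists were chosen with earlier results of the same arrays known, so these counts are a description only. Cdh2, N-cadherin, read 11.74, 10.89 and 11.49 in blood cultures, against 4.90, 6.40 and 6.09 in marrow cultures, and rose by 5.58 ± 0.45 (adjusted p = 0.0283). Cadm1, a synaptic and epithelial adhesion molecule, read 10.85, 9.43 and 10.96 in blood cultures, against 6.04, 6.33 and 6.77 in marrow cultures, and rose by 4.03 ± 0.34 (adjusted p = 0.0312). In both, every blood array lay far above every marrow array, and a second probe set of each also passed, at 6.94 ± 0.51 for Cdh2 and 5.76 ± 0.25 for Cadm1 (adjusted p = 0.023 and 0.0179). Without rat S4 or without rat S6, and with the floor at the 25th percentile, 0 of the 164 genes passed. Ncam1, the neural cell adhesion molecule, read 11.06, 10.16 and 10.80 in blood cultures, against 8.94, 8.39 and 10.66 in marrow cultures. Its groups overlapped, since rat S6 was bright in both, and the difference of 1.34 ± 0.41 did not pass (adjusted p = 0.338).

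**Figure D3:**
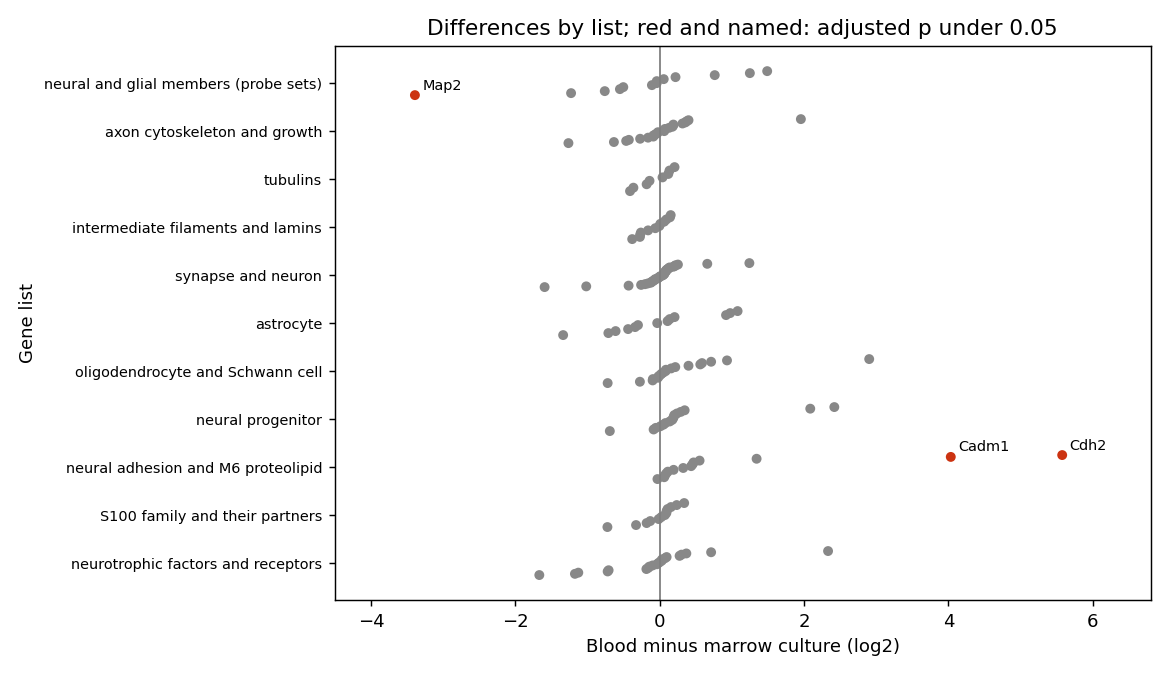
Blood minus marrow difference (log2) of the 13 member probe sets and of the brightest probe set of each gene in 10 related lists, one list per line. Red points passed at an adjusted p under 0.05: Map2 at -3.39, Cadm1 at 4.03 and Cdh2 at 5.58.

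Of the 23 axon cytoskeleton and growth genes, 0 passed in limma and 2 had an unadjusted p under 0.05. Map1b, a microtubule-associated protein of growing axons, had values on the other side from Map2, at 10.87, 10.78 and 10.78 in blood cultures, against 9.76, 7.90 and 8.90 in marrow cultures. The groups did not overlap, and the difference of 1.96 ± 0.35 did not pass (adjusted p = 0.144). A dimmer Map1b probe set differed by only 0.12 ± 0.14.

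Marcks, an actin-binding substrate of protein kinase C akin in function to Gap43, had a mean difference below 0 on all 6 of its probe sets, none of which passed. The brightest read 10.69, 10.89 and 10.93 in blood cultures, against 11.29, 11.24 and 11.37 in marrow cultures, at -0.46 ± 0.13 (adjusted p = 0.303). The largest of the 6 differences was -1.13 ± 0.18 (adjusted p = 0.117). Basp1, a growth cone membrane protein, and Dpysl2, a regulator of axon microtubules, differed by 0.37 ± 0.22 and -0.09 ± 0.13, neither of which passed (adjusted p = 0.651 and 0.906). Stmn2, a tubulin-binding protein of growing neurites picked out after its values were seen, varied widely in both sources, at 7.74, 10.34 and 6.52 in blood cultures and 11.21, 9.68 and 7.50 in marrow cultures. Its second probe set had the same order of arrays within each source, at 6.34, 9.27 and 6.00 in blood cultures and 10.43, 8.74 and 6.67 in marrow cultures. As for Nefm, the blood culture of rat S5 was the highest of the 3 on both probe sets.

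None of the 8 tubulins passed, with 0 at an unadjusted p under 0.05 in limma. Tubb5, a tubulin of most cell types, was bright and level at 11.63, 11.43 and 11.50 in blood cultures and 11.57, 11.70 and 11.71 in marrow cultures. Among 12 intermediate filament and lamin genes, likewise 0 passed and 0 had an unadjusted p under 0.05. Vim, the filament protein of mesenchymal cells that assembles with nestin, differed by 0.01 ± 0.13 and Des, the muscle filament protein desmin, by -0.38 ± 0.15 (adjusted p = 0.451). Nefh, the heavy neurofilament chain, lay at 7.45, 7.60 and 7.55 in blood cultures and 7.48, 7.52 and 7.41 in marrow cultures.

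Of 34 synapse and neuron genes, 0 passed in limma and 3 had an unadjusted p under 0.05, namely Scg3, Pcp4 and Uchl1. Uchl1, a ubiquitin hydrolase abundant in neurons, read 8.08, 5.86 and 7.96 in blood cultures, against 5.61, 5.72 and 6.84 in marrow cultures, at 1.24 ± 0.45 (adjusted p = 0.415). As with Gpm6a, its blood value was lowest in rat S5, which also held for Cdh2, Cadm1, Sort1 and Cryab but not for Nefm or Stmn2.

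Of 13 astrocyte genes, 0 passed in limma and 4 had an unadjusted p under 0.05. Ndrg2, an astrocyte-enriched gene, read 9.79, 9.49 and 9.08 in blood cultures, against 9.07, 8.08 and 8.28 in marrow cultures, at 0.98 ± 0.18 (adjusted p = 0.159). Slc1a3, a glial glutamate transporter, read 10.11, 10.33 and 9.42 in blood cultures, against 9.04, 8.44 and 9.14 in marrow cultures, at 1.08 ± 0.32 (adjusted p = 0.325). Its probe set 1371130_at went the other way at -0.17 ± 0.15, and 1388064_a_at differed by 0.55 ± 0.30 (adjusted p = 0.794 and 0.617). Gja1, the gap junction protein of astrocytes and many mesenchymal cells, differed by -0.71 ± 0.18 (adjusted p = 0.259). These differences thus lay on both sides of 0.

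Of 19 oligodendrocyte and Schwann cell genes, 0 passed in limma and 4 had an unadjusted p under 0.05. The widest was Cryab, a small heat shock chaperone that glia and muscle share, at 12.23, 8.98 and 12.15 in blood cultures, against 7.34, 6.84 and 10.47 in marrow cultures, with overlapping groups and a difference of 2.90 ± 0.65 (adjusted p = 0.217). Mbp, myelin basic protein, stayed dim at 6.42, 6.30 and 5.78 in blood cultures and 5.49, 5.81 and 5.51 in marrow cultures. Of 16 neural progenitor genes, 0 passed and 2 had an unadjusted p under 0.05. Sox2, the progenitor transcription factor, was dim at 5.11, 4.88 and 4.48 in blood cultures, against 5.75, 5.34 and 5.45 in marrow cultures. Nog, the BMP antagonist noggin, read 8.41, 6.30 and 9.24 in blood cultures, against 5.52, 5.30 and 5.87 in marrow cultures, at 2.42 ± 0.48 (adjusted p = 0.174). The order of its 3 blood cultures was that of Gpm6a and also of Cadm1. How many other probe sets have this order was not counted, so it is a description only.

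Of 13 genes of the S100 family and its partners, 0 passed in limma and 1 had an unadjusted p under 0.05. Beside the uneven S100b, the relatives S100a6 and S100a11 were bright and level. S100a11 stood at 12.80, 12.56 and 12.73 in blood cultures and 12.66, 12.67 and 12.69 in marrow cultures, and S100a6 differed by -0.01 ± 0.15 (adjusted p = 0.994).

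Of 21 neurotrophic factor and receptor genes, 0 passed in limma and 5 had an unadjusted p under 0.05. Bdnf, brain-derived neurotrophic factor, read 8.05, 8.33 and 8.03 in blood cultures, against 9.09, 8.74 and 8.70 in marrow cultures on its brighter probe set, at -0.71 ± 0.17 (adjusted p = 0.242). On its other probe set the difference was -2.06 ± 0.36 (adjusted p = 0.141). Sort1, sortilin, a sorting receptor that binds pro-neurotrophins, read 10.14, 8.48 and 10.09 in blood cultures, against 6.83, 7.35 and 7.53 in marrow cultures, at 2.33 ± 0.43 (adjusted p = 0.151). Mdk, the growth factor midkine, differed by -1.17 ± 0.14 (adjusted p = 0.0708).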

How the data were processed

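Signals of 6 Affymetrix RAE230A arrays, 3 of blood and 3 of marrow cultures, were read from the deposited series matrix, which holds log2 values as the authors deposited them. No source used here states the base, which was taken as 2 because the values run from 0 to 13.31, so folds depend on it. The submitters' processing notes name GCOS; how signals were summarised, corrected for background and normalised is not given in the sources used. The deposited instrument files hold settings and no other measurement, per the file headers. Fluidics station 1 holds both cultures of rats S4 and S5 and station 2 those of S6, so within-station values are the within-rat ones. Module numbers 1 and 3 hold blood cultures and numbers 2 and 4 marrow cultures, so that module number and group cannot be told apart beside the rat. Numbers 1 and 2 occur on both stations, so each array had a station and module of its own. Empty cells (86 of 95538) stayed empty, no pseudocount was added, and no filter on low values was used, since filters leave 1 to 4 of the 13 probe sets.

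All probe sets that are not controls were fitted with two-sided moderated tests (limma 3.58.1 under R 4.3.3). A sign-flip test over 3 pairs cannot give a p under 0.25. The rat was a term of the fit because the series' design text pairs the cultures by animal. Once group means were removed, the pair from 1 animal correlated at -0.16, 0.21 and 0.15. Pairs from different animals ran from -0.33 (blood of S5, marrow of S6) to 0.29 (blood of S4, marrow of S6). The values themselves thus do not show the pairing clearly. Of the platform's probe sets 12789 have 1 gene symbol, 312 several and 2822 none, and only the first were named; symbols were checked through gene identifiers in RefSeq's table and 0 needed updating. A gene in a related list is represented by its brightest probe set by mean over the 6 arrays. Members and lists were chosen with earlier results of these data known. Named genes are all members and, in each related list, from up to 4 with the smallest p and up to 3 with the highest mean, plus those marked as picked by their values, further probe sets, marker genes, and a relative of members (Nefh).

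On simulated data with 15791 probe sets, 200 of them changed, the fit of blood against marrow cultures recovered 23.8% of changes of 1 log2 unit. It recovered 68% of changes of 2 and 90.6% of 4, and 3.6% of the calls were false. The simulated noise was normal, equal in both sources and without a floor. The changed probe sets were drawn at random, so these rates may not hold for dim probe sets or unequal spread, as for Map2. The number of arrays limits precision. Promoter sequences come from RefSeq (GRCr8). Tables used Python 3.11.15 with pandas 2.3.3 and numpy 2.4.6, and plots used matplotlib 3.10.9. Alternatives tried were filters on low values, 3 scalings of the arrays, a floor, exact zeros as missing, an intensity trend, no rat term, and leaving out each rat.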

Additional observations from a re-analysis of the deposited data

How the results depend on the processing

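Of the 13 member probe sets 1 passed in the fit reported. The count was also 1 with no replicate block, with an intensity trend, with exact zeros set to missing and with the fluidics module number as a random block. That block was added after seeing the data, leaves out the rat, and merges modules of the same number on both stations. The count was 0 with each scaling of the arrays, with a floor at the 25th percentile, and with each filter on low values, all of which remove the called Map2 probe set, and 0 to 1 when a rat was left out. Without the replicate block, which ignores the pairing by rat, adjusted p of Map2 was 0.0205 and no member's call changed. With the module number as a block the adjusted p of Map2 was 0.0247. Map2 fell by 2.98 to 3.83 with a rat left out. With a rat left out, the difference of Gap43 ran from -0.30 (without S5) to 0.37 (without S4), that of its probe set 1371287_at from -0.57 (without S4) to 0.53 (without S6), that of Gfap from -0.06 (without S5) to 0.17 (without S4) and that of S100b from -0.97 (without S4) to 0.13 (without S6). With the floor the Gap43 difference was 0.0033. All 4 thus crossed 0; none passed in either case, and the cause was not tested.

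Over all probe sets 82 passed. There were 239 with the filter on the 3 arrays of either group, 139 with that on the mean, 173 with the median exceeded on 3 of 6 arrays (added after seeing the data), 251 with an intensity trend, 48 with a common trimmed mean, 43 with quantile normalization, 1 with the floor, and 0 to 165 with a rat left out. In limma 1235 and 1202 had an unadjusted p under 0.05 without rats S4 and S6, where 0 passed. The 2 related genes that passed, Cdh2 and Cadm1, became 6 with the filter on either group (which admits a gene through the group where it is high, so that this count gives no support), 4 with the trend, 4 with every probe set counted, 0 with the floor and 0 to 5 with a rat left out. No background level or detection call was used, which limits what the dim probe sets can show.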

Other observations

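Nrg1, the growth factor neuregulin that acts on Schwann cells and heart muscle, was picked out after its values were seen. The probe set with the largest difference of its 8 read 8.97, 6.52 and 9.57 in blood cultures of rats S4, S5 and S6. In marrow cultures it read 5.32, 4.87 and 5.71, and the difference of 3.05 ± 0.47 did not pass in limma (adjusted p = 0.116). On 1371211_a_at, 1370607_a_at and 1371212_at the groups did not overlap either, with differences of 2.25 ± 0.41, 0.83 ± 0.22 and 0.54 ± 0.16. None of these passed (limma adjusted p = 0.151, 0.287 and 0.338). On its brightest probe set the difference was 0.03 ± 0.17 (adjusted p = 0.979). On 1371218_a_at, 1388245_a_at and 1388258_at it was 0.08, 0.06 and 0.0. On the probe set with the largest difference the order of the 3 blood cultures was that seen for Gpm6a, Nog and Cadm1. Rat S5 was lowest there but not on 1371212_at, and the order is a description only.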
